A study of Mus musculus with 6 samples.

Results

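Metallothioneins, their transcription factor Mtf1 and a group of zinc transporters were examined in neurospheres of the Ts1Cje mouse model of Down syndrome. The group was set by name as 10 genes, Mt1, Mt2, Mt3, Mtf1, Slc30a1, Slc30a10, Slc39a1, Slc39a6, Slc39a10 and Slc39a14, and takes in every probe set that the platform annotation gives to one of these genes alone. That made 10 of the 18193 genes that at least 1 probe set names alone, and 24 of the 45037 probe sets on the arrays. The genes were selected on values of these same arrays, the difference between the genotypes being known when they were chosen, so their differences are described here and not tested. The arrays were hybridised with RNA from cells of the subventricular zone, grown for 7 days as neurospheres. The Ts1Cje cells came from 3 female mice that carry an extra copy of distal chromosome 16 on a C57BL/6 background, and the disomic cells from 3 female C57BL/6 littermates, all of them 84 days old. All cultures grew in the same medium with EGF and FGF2, and the extra segment in Ts1Cje, whose copy of Sod1 is not functional, is joined to the end of chromosome 12. None of the member genes lies on chromosome 16.

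Metallothioneins are small cysteine-rich proteins that bind zinc and copper in the cell. Mt1 and Mt2 are made in most tissues and in the brain mainly by astrocytes, and Mt3 is largely a brain form. Zinc switches on Mt1, Mt2 and the zinc exporter gene Slc30a1 through Mtf1, a zinc finger transcription factor that binds metal response elements in their promoters. Transporters of the Slc30 family move zinc out of the cytosol, whereas those of the Slc39 family bring it in, so that the balance between them sets the free zinc of the cell.

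The promoters of Mt1, Mt2, Mt3 and Slc30a1 are shown, the member genes that stood furthest above the disomic level in Ts1Cje neurospheres. Of these, Mt1, Mt2 and Slc30a1 are the ones on which zinc is known to act through their promoters. RefSeq promoter windows (build GRCm38.p6) were at hand for 8 of the 10 genes. Each line gives the 250 bases before the annotated start, 5′ to 3′ on the plus strand, and capitals mark the core of the metal response element, searched as TGCACNC or TGCGCNC on both strands. A match on the other strand stands in capitals as it reads on the printed one. The windows are chr8:94178839-94179088 for Mt1, chr8:94172368-94172617 for Mt2, chr8:94152357-94152606 for Mt3 and chr1:191906531-191906780 for Slc30a1.
Mt1: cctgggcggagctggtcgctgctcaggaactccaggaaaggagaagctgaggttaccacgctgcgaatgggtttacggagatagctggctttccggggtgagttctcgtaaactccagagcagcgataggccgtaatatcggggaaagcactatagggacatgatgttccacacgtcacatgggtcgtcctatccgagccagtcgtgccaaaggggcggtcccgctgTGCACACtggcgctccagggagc
Mt2: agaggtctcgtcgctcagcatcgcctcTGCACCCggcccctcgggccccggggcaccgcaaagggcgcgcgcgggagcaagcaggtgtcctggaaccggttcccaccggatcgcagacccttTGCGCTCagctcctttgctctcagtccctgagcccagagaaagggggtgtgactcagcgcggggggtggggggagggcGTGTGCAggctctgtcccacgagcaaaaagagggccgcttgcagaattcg
Mt3: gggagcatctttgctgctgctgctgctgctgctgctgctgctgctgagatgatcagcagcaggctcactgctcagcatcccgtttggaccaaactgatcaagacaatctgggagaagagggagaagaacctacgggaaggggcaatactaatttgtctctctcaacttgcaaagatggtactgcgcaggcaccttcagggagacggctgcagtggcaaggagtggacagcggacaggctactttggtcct
Slc30a1: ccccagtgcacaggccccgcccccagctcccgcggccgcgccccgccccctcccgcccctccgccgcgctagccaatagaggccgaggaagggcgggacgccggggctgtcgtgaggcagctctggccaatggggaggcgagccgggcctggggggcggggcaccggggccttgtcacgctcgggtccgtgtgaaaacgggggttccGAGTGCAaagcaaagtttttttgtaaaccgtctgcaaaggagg
The Mt2 window held 3 matches, at 223, 128 and 50 bases before the start, the last of them on the other strand. The Mt1 window held 1 match, 23 bases before the start, and the Slc30a1 window 1 match on the other strand at 43 bases. The Mt3 window had 0 matches, as had those of Mtf1, Slc39a1 and Slc39a10, while that of Slc30a10 had 3, of which the pair at 233 and 232 bases overlap on opposite strands. Over all 32851 windows of this length, 21.4% held at least 1 match and 1.26% at least 3. A match is a stretch of letters and was not tested as a site. Bases after the annotated start, or further before it, were not searched. The counts thus hang on where the start is annotated and do not give all metal response elements of a gene.

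Each array gave 1 log2 intensity for a probe set. The difference M is the Ts1Cje mean of these minus the disomic mean, and A is their mean over the 6 arrays. A probe set was taken as expressed where A was above 5. This held for 16371 probe sets, whose median M was 0.01. The expressed probe sets of the trisomic segment, 80 in number, had a median M of 0.54, and 79 of them were above 0. Of the astrocyte and neural stem cell markers 10 of 12 were expressed, with Gfap and S100b below the limit, and 0 of 6 microglial, 0 of 5 ependymal and 0 of 6 vascular markers were expressed. The number of arrays limits the precision throughout.

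Of the 24 member probe sets 12 were expressed, for 9 genes, and the other 12 stood at A of 5 or less with M between -0.13 and 0.14. Those nearest the limit were the second Mtf1 probe set at A = 5.39, just inside, and a Slc39a6 probe set at A = 4.79, just outside. Slc30a10, an exporter of zinc and manganese, had no expressed probe set, and 4 member probe sets, for Mtf1, Slc30a10 and Slc39a14, stood within 0.001 of the lowest value of the arrays on all 6. The expressed ones had a median M of 0.12, with 10 above 0 (51.6% of all expressed probe sets were). On 4 of the 12 the Ts1Cje arrays were all above the disomic ones, which held for 5.53% of all expressed probe sets, and on 0 they were all below (5.21% of all). These 4 were the brightest probe sets of Mt1, Mt2, Mt3 and Slc30a1. None of the 12 had a moderated t past 4 in limma, which 1.78% of expressed probe sets passed. The study describes its cultures as littermate pairs, but the labels do not say that the replicate numbers mark them. In the fit with that number as a block Mt1 and Mt2 did pass this limit, as given with the alternatives. That fit leaves fewer degrees of freedom for the error, which makes the limit easier to pass. An unadjusted p under 0.05 was given by 3 of the 12, against 6.18% of all, and the adjusted p was under 0.05 for 0 of them (0.00611% of all). The genes were chosen with this contrast in view, so nothing is read from these counts.

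**Figure D1:**
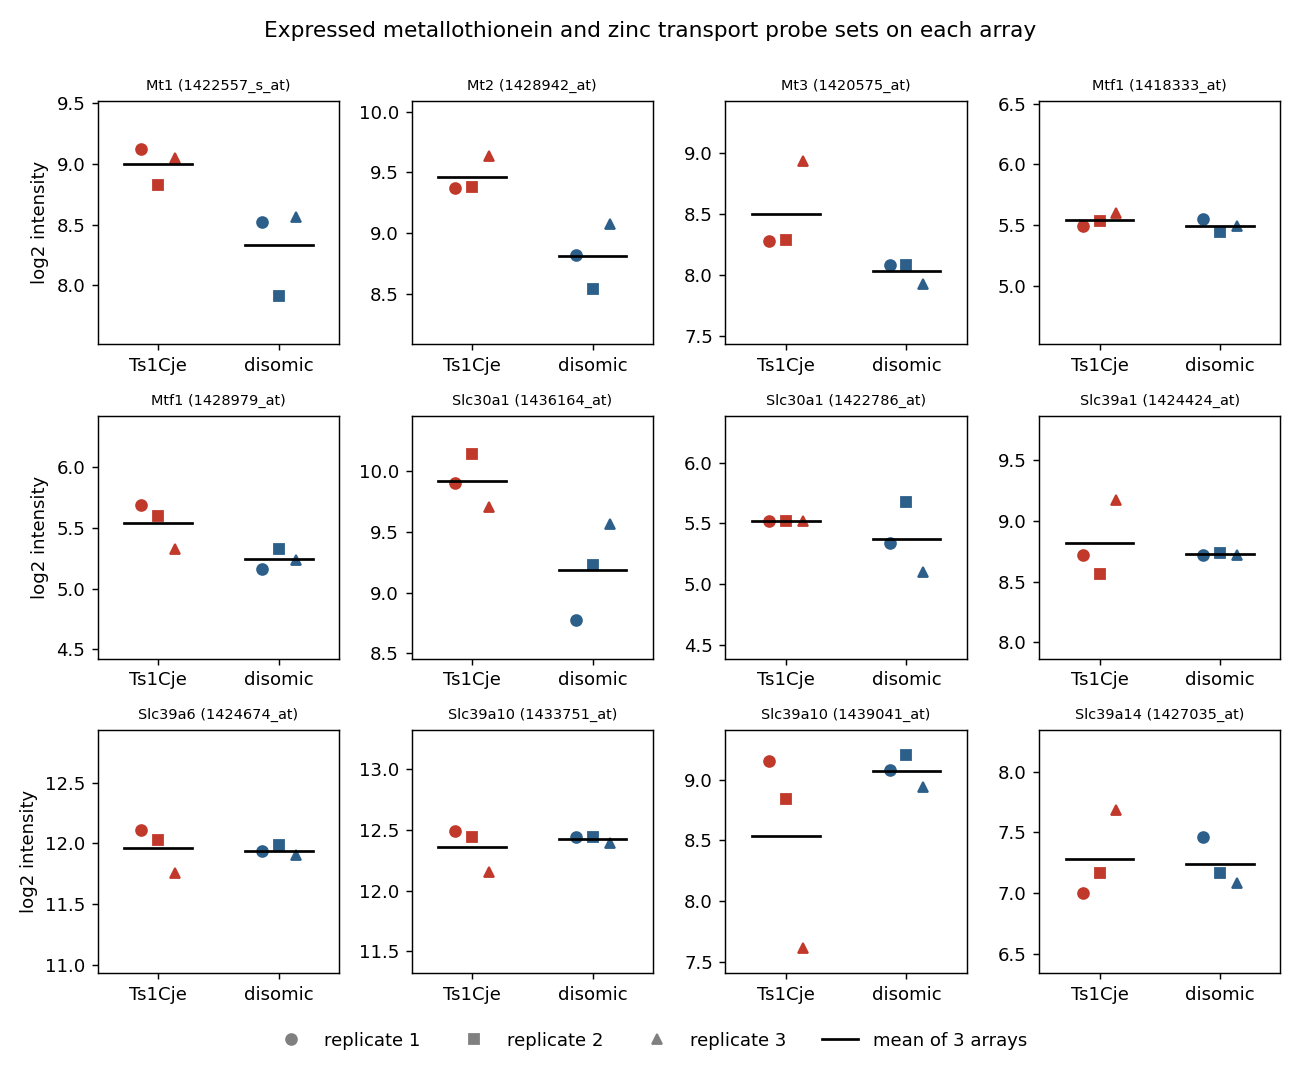
Log2 intensity of the 12 expressed member probe sets on each of 3 Ts1Cje (red) and 3 disomic (blue) arrays, with a bar at the mean of each genotype. Every panel spans the same range of log2 units around its own centre. The groups lie apart for Mt1, Mt2, Mt3 and the brighter probe set of Slc30a1, and overlap in the other panels.

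Both common metallothioneins were higher in the Ts1Cje neurospheres, by about the same amount. Mt2 read 9.37, 9.38 and 9.63 on the Ts1Cje arrays, replicates 1 to 3, against 8.82, 8.54 and 9.08 on the disomic arrays. The groups were separated by 0.29 between the lowest Ts1Cje and the highest disomic array. Mt2 thus averaged 9.46 ± 0.15 in Ts1Cje and 8.81 ± 0.27 in disomic neurospheres (SD, n = 3 each), M = 0.65 with a standard error of 0.17, which is a fold change of 1.57. In RNA from whole cultures, more cells of a type and more RNA of a gene per cell cannot be told apart.
Mt1 read 9.12, 8.83 and 9.05 on the Ts1Cje arrays, against 8.53, 7.92 and 8.57 on the disomic arrays. Again no arrays overlapped, and disomic replicate 2 was the lowest on both genes. Mt1 averaged 9.00 ± 0.15 in Ts1Cje and 8.34 ± 0.37 in disomic neurospheres (SD, n = 3 each), M = 0.66 with a standard error of 0.22, a fold change of 1.59. Without disomic replicate 2 the M of Mt1 was 0.45, and over all arrays left out in turn that of Mt2 lay between 0.51 and 0.78. The probe set of Mt1 is of a type (suffix s) whose probes can bind transcripts of more than one gene, and whether Mt1 and Mt2 share signal on it was not tested. A dim second probe set of Mt1, at A = 2.63, had M = -0.06.

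Mt3, known also as growth inhibitory factor of the brain, was higher too, but less evenly. It read 8.28, 8.29 and 8.94 on the Ts1Cje arrays, against 8.08, 8.08 and 7.93 on the disomic arrays. All Ts1Cje arrays were above all disomic ones, but replicate 3 alone stood far from the rest. Mt3 averaged 8.50 ± 0.38 in Ts1Cje and 8.03 ± 0.09 in disomic neurospheres (SD, n = 3 each), M = 0.47 with a standard error of 0.22. Without Ts1Cje replicate 3 its M was 0.25. The remaining metallothionein of the cluster, Mt4, a form of stratified epithelia, stood at the lowest value on all arrays.

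The exporter Slc30a1, which sits in the plasma membrane and carries zinc out of the cell, had the highest M of the group. Its brighter probe set read 9.91, 10.14 and 9.70 on the Ts1Cje arrays, against 8.78, 9.23 and 9.57 on the disomic arrays. The groups did not overlap, although disomic replicate 3 came within 0.14 of the lowest Ts1Cje array. The means were 9.92 ± 0.22 in Ts1Cje and 9.19 ± 0.40 in disomic neurospheres (SD, n = 3 each), M = 0.73 with a standard error of 0.25 and a fold change of 1.66. A dimmer probe set of Slc30a1 had overlapping groups. It read 5.52 on all 3 Ts1Cje arrays, against 5.34, 5.68 and 5.10 on the disomic arrays, with M = 0.15 and a standard error of 0.16. The disomic arrays lay on both sides of the Ts1Cje ones, and M was 0.30 without disomic replicate 2 and 0.01 without disomic replicate 3.

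Mtf1, the regulator of these genes, was read by a pair of expressed probe sets close to the limit, with unlike values of M. Its brighter probe set read 5.49, 5.53 and 5.60 on the Ts1Cje arrays, against 5.55, 5.44 and 5.49 on the disomic arrays, M = 0.05 with a standard error of 0.04. This was the narrowest spread of all member probe sets that were expressed, with a within-genotype SD of 0.05 against a median of 0.23 over all expressed probe sets. The other expressed probe set read 5.69, 5.60 and 5.33 on the Ts1Cje arrays, against 5.16, 5.33 and 5.24 on the disomic arrays. Here Ts1Cje replicate 3 and disomic replicate 2 had the same value, so the groups touched, and M was 0.30 with a standard error of 0.11. Its moderated t in limma was 2.60 with all arrays. Without Ts1Cje replicate 3 its M was 0.40 and its moderated t 5.82, the highest of the fits without 1 array, of which the lowest gave 1.87. Such fits leave fewer degrees of freedom for the error.

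The importers gave M values on either side of 0 and overlapping groups on all 5 expressed probe sets, with a median M of 0.02. Slc39a6, an importer known from oestrogen-responsive tumours, read 12.11, 12.03 and 11.76 on the Ts1Cje arrays, against 11.93, 11.98 and 11.90 on the disomic arrays, M = 0.02 with a 95% interval from -0.26 to 0.31. Slc39a1, a widely expressed plasma membrane importer, read 8.72, 8.56 and 9.18 on the Ts1Cje arrays, against 8.72, 8.73 and 8.72 on the disomic arrays, M = 0.09 with an interval from -0.38 to 0.57. The Ts1Cje arrays of both genes spread on either side of the disomic ones.
Slc39a14, which takes up zinc, iron and manganese, read 7.00, 7.17 and 7.68 on the Ts1Cje arrays, against 7.46, 7.16 and 7.09 on the disomic arrays. Its M was 0.05, with an interval from -0.56 to 0.65, and Ts1Cje replicate 3 and disomic replicate 1 were the highest arrays of their genotypes.
Slc39a10, an importer whose transcription Mtf1 is known to restrain in mouse cells, was read by a bright and a dimmer probe set. The bright one read 12.49, 12.44 and 12.16 on the Ts1Cje arrays, against 12.44, 12.45 and 12.39 on the disomic arrays, M = -0.06 with a standard error of 0.10. The dimmer one read 9.15, 8.84 and 7.62 on the Ts1Cje arrays, against 9.08, 9.20 and 8.94 on the disomic arrays. Its M of -0.54 rested on Ts1Cje replicate 3, without which it was -0.08, and the standard error was 0.46.

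**Figure D2:**
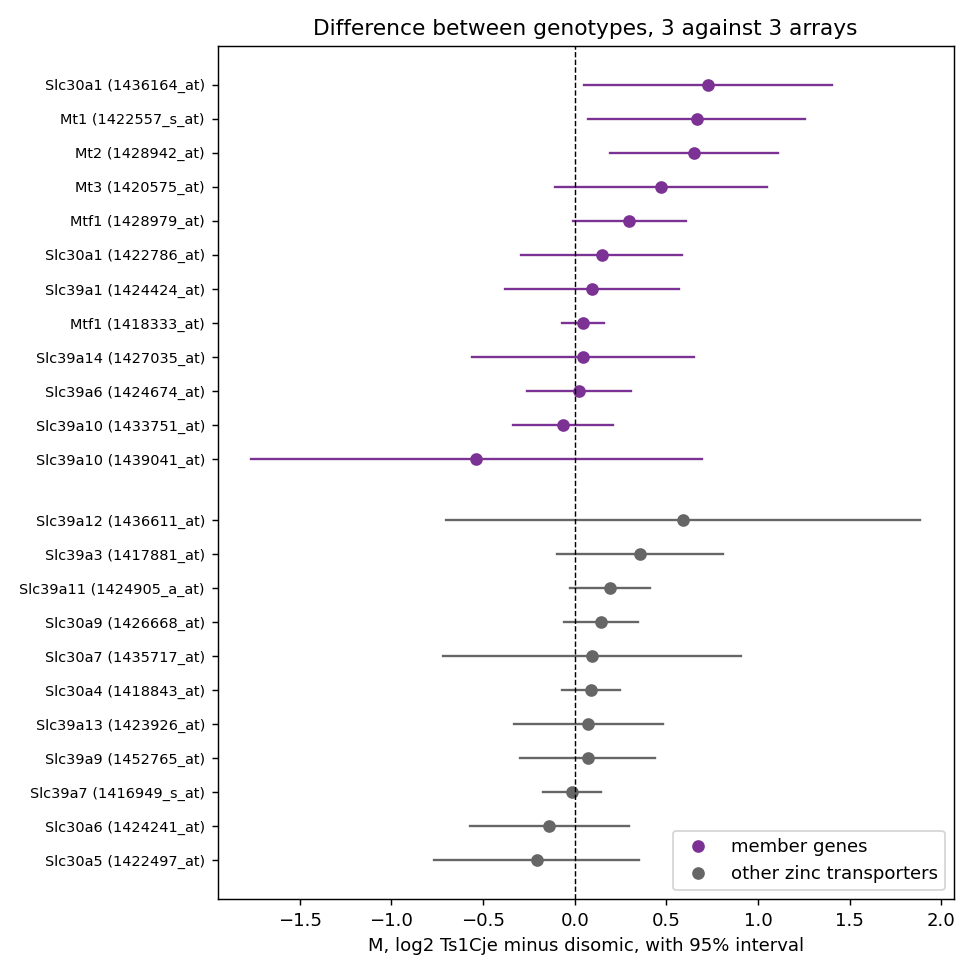
M, the log2 difference Ts1Cje minus disomic, with its 95% interval from limma for the 12 expressed member probe sets (purple, above) and the 11 other expressed zinc transporters (grey, below). Slc30a1, Mt1 and Mt2 have the highest M among the members, from 0.65 to 0.73. The intervals of Mt3, both probe sets of Mtf1, the dimmer probe set of Slc30a1 and all importers hold 0.

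Replicate 3 of the Ts1Cje neurospheres was the highest or lowest Ts1Cje array on several members, as any of 3 arrays often is. How often this held over all probe sets was not counted. Replicate 3 was the highest Ts1Cje array on Mt2, Mt3, Slc39a1, Slc39a14 and the brighter probe set of Mtf1. It was the lowest on the brighter probe set of Slc30a1, the other expressed one of Mtf1, Slc39a6 and both probe sets of Slc39a10. Mt1 and Mt2 followed each other closely. Their centred profiles, which are the log2 values minus the mean over the 6 arrays, differed by a root mean square of 0.14. That of Mt3 differed by 0.29 and that of Slc30a1 by 0.33 from the mean profile of Mt1 and Mt2. Mt1 and Mt2, which make up this mean, each differed from it by 0.07. Over the 8938 other expressed genes, each by its brightest probe set, the median difference from that mean was 0.42. Set among these genes, smallest difference first, Mt3 would stand at rank 685 and Slc30a1 at rank 1592.
The 5 genes with the most similar profile were Adcy8, an adenylyl cyclase (0.0956), Lonrf3 (0.0980), Arfgef2, an exchange factor of vesicle traffic (0.0993), Fzd5, a Wnt receptor (0.104), and Slc25a33, a mitochondrial nucleotide carrier (0.109). They had M values of 0.64, 0.61, 0.57, 0.67 and 0.69 in the same order. A profile is made of 6 values, and its largest part here is the step between the genotypes, so these genes are named as a description only.

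**Figure D3:**
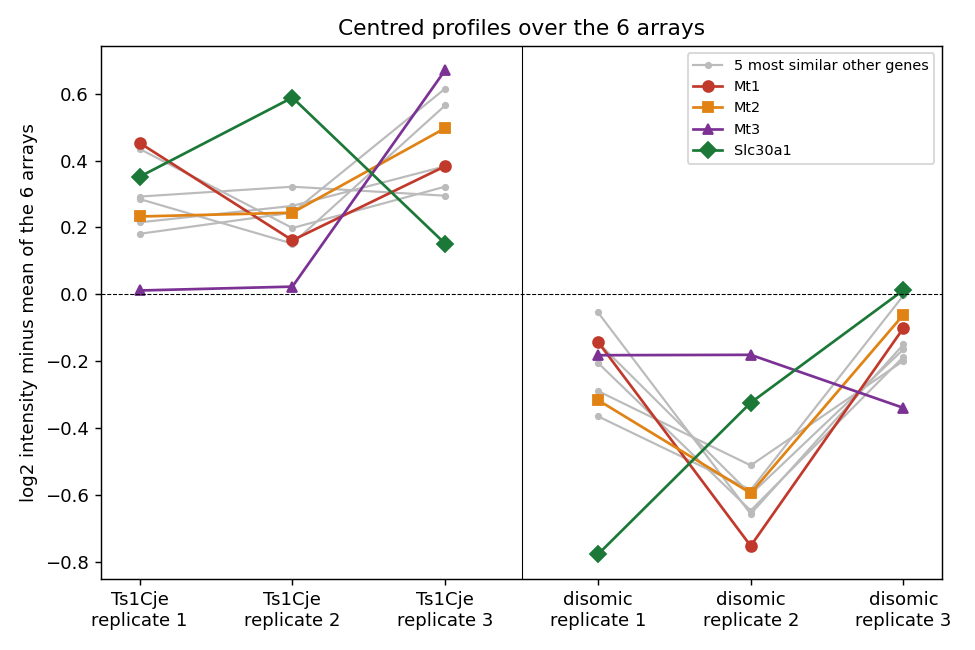
Log2 intensity minus the mean of the 6 arrays for Mt1, Mt2, Mt3, Slc30a1 and, in grey, Adcy8, Lonrf3, Arfgef2, Fzd5 and Slc25a33, on 3 Ts1Cje arrays (left) and 3 disomic arrays (right). Lines join the points of a gene within a genotype and imply no order. Mt1 and Mt2 run together with their lowest point at disomic replicate 2, while Slc30a1 is lowest at disomic replicate 1.

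The metallothionein genes lie side by side on chromosome 8 in the order Mt4, Mt3, Mt2, Mt1, and their neighbours were looked at after the values of the cluster had been seen. Of the 5 protein-coding genes on each side, 5 in all had an expressed probe set. These were Nudt21, Ogfod1, Bbs2, Nup93 and Herpud1, whose M ran from -0.33 to 0.08 with a median of -0.26. None of these passed a moderated t of 4 in limma. Bbs2, a ciliary trafficking protein on the Mt4 side of the cluster, was lower on every Ts1Cje array, with 5.83, 5.82 and 5.85 in Ts1Cje against 5.94, 6.48 and 5.88 in disomic neurospheres. Nup93, a nucleoporin next to Mt1, read 9.75, 9.62 and 9.54 in Ts1Cje against 10.20, 10.01 and 9.69 in disomic neurospheres, so that the arrays overlapped.

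The rest of the zinc transporter families were set beside the members. The list held 18 further Slc30 and Slc39 genes, of which 11 were expressed, 8 with M above 0 and 3 below, and the median M was 0.09. In limma, 0 of 11 had a moderated t past 4, 0 an adjusted p under 0.05 and 0 an unadjusted p under 0.05. Over all expressed probe sets these shares were 1.78%, 0.00611% and 6.18%. Counts of 0 are near these shares for a list of 11 genes, so nothing is read from them. The values furthest from 0 relative to their error were those of Slc39a11 and Slc39a3. Slc39a3, a plasma membrane importer, read 6.46, 6.84 and 6.49 on the Ts1Cje arrays, against 6.34, 5.99 and 6.39 on the disomic arrays, M = 0.36 with a standard error of 0.17. It was the only gene of the 11 whose groups did not overlap, against 10.7% of all expressed probe sets in either direction. Slc39a11, a transporter found in the Golgi and the nucleus, had M = 0.19 with a standard error of 0.08 (adjusted p = 1.0 in limma for both). Slc39a12, an importer enriched in brain, had M = 0.59, but this came from Ts1Cje replicate 1 at 6.88, while the other Ts1Cje arrays read 5.31 and 5.51 and the disomic arrays 5.15, 5.42 and 5.36.

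Lists of genes around metal handling gave no call in limma either. Of the other Mtf1 targets 4 of 5 were expressed, with 3 above 0 and a median M of 0.12. Gclc, which makes the first step of glutathione synthesis, was lower on every Ts1Cje array, with 8.47, 8.34 and 8.53 in Ts1Cje against 8.86, 8.60 and 8.67 in disomic neurospheres, M = -0.26 with a standard error of 0.09. Selenow, a selenoprotein, had M = 0.18. The copper list had 8 expressed genes of 10, with 7 above 0 and a median M of 0.11. Its members furthest from 0 relative to their error were the copper pump Atp7a (M = 0.21) and the copper chaperone Atox1 (M = 0.21).
The iron list had 10 expressed genes of 15, with 8 above 0 and a median M of 0.11. Slc11a2, the divalent metal transporter that takes up iron and manganese, read 6.29, 6.31 and 6.30 on the Ts1Cje arrays, against 6.92, 6.65 and 6.54 on the disomic arrays. The Ts1Cje arrays were level and all below the disomic ones, M = -0.40 with a standard error of 0.11 and a moderated t of -3.71 (adjusted p = 1.0 in limma). Heph, a ferroxidase of iron export, had M = 0.91 with a standard error of 0.51 and overlapping groups.

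Metallothionein genes also respond to glucocorticoids and to oxidative stress, and lists for both were set beside them. Of the glucocorticoid targets 10 of 11 were expressed, with 6 above 0 and a median M of 0.10. Per1, a clock gene, had M = 0.37 with groups that did not overlap, and Fkbp5, an immunophilin that restrains the glucocorticoid receptor, M = -0.21 with groups that did. Of the genes of metal and oxidative stress 8 of 10 were expressed, with 5 above 0 and a median M of 0.12.
Hmox1, the inducible haem oxygenase, read 6.73, 6.67 and 7.51 on the Ts1Cje arrays, against 6.31, 6.20 and 5.03 on the disomic arrays. The groups did not overlap, and replicate 3 of each genotype lay furthest out. Its M was 1.12, with a standard error of 0.47, and was 0.71 without disomic replicate 3. The only other gene of this list without overlap was Gclm, the modifier subunit of glutathione synthesis, with M = 0.31. Of all expressed probe sets 10.7% had no overlap, in either direction. Slc7a11, the cystine importer that feeds glutathione synthesis, had M = 0.88 with a standard error of 0.35. Its groups overlapped by less than 0.01.
These lists are the Mtf1 targets, copper, iron, glucocorticoid and stress genes. Over them 0 genes had a moderated t past 4 or an adjusted p under 0.05 in limma. Gclc and Slc11a2 alone had an unadjusted p under 0.05. Over all expressed probe sets the shares were 1.78%, 0.00611% and 6.18% in the same order. The counts are near these shares for lists of this size, so nothing is read from them. The fit with the replicate number as a block and some fits without 1 array did call a few genes of these lists, as given with the alternatives. The genes named here from these lists, the other zinc transporters and the markers below were 15. Of these, 10 had an M that moved by over 1.5 times without 1 array, among them Slc39a3, Atp7a, Heph, Per1 and Gclm. The M of 0 genes changed sign, which says little. Most were named for an M large relative to its error, and the rest after their values were seen.

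**Figure D4:**
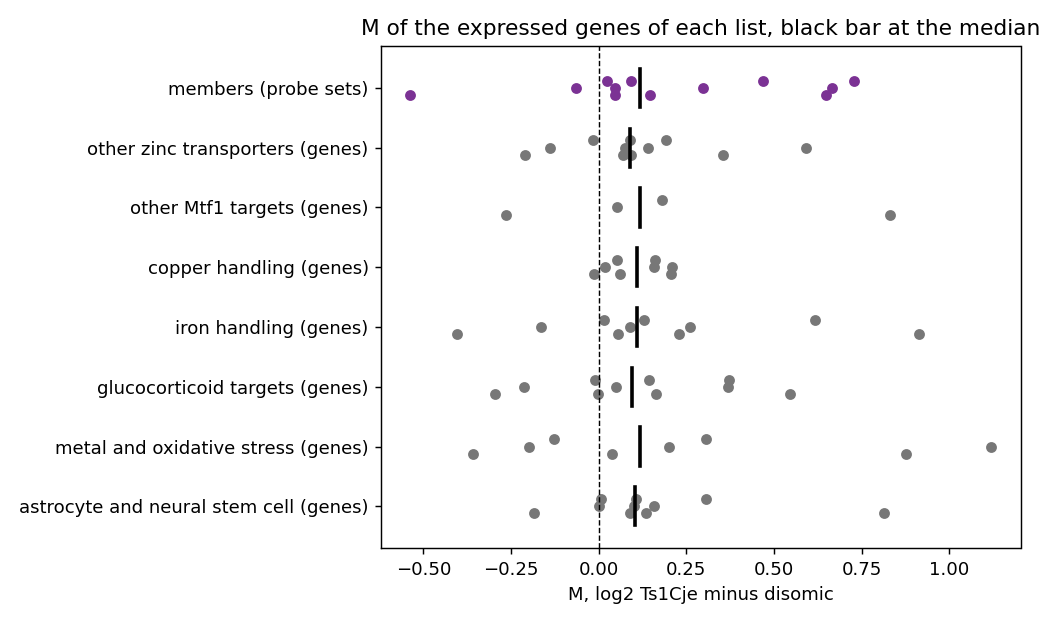
M of the expressed members (purple, 1 point per probe set) and of the expressed genes of 6 lists around metal handling and of the astrocyte and neural stem cell markers (grey, 1 point per gene, brightest probe set), with a black bar at each median. The medians all lie between 0.09 and 0.12, and Hmox1 has the highest single value at 1.12, which is 0.71 without disomic replicate 3.

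Markers of astrocytes and controls of RNA quality were set beside the members. The astrocyte and neural stem cell markers had a median M of 0.10 over 10 expressed genes, with 8 above 0. Their summed linear signal ran from 71732 to 75487 on the Ts1Cje arrays and from 64235 to 73887 on the disomic arrays. Aqp4, the water channel of astrocytes, read 11.41, 11.77 and 11.95 in Ts1Cje against 10.65, 11.26 and 10.78 in disomic neurospheres. Its M was 0.81 with a standard error of 0.23. Aqp4 alone among the 10 expressed markers had groups that did not overlap, against 10.7% of all expressed probe sets in either direction. The oligodendrocyte, progenitor and neuronal lists, with medians of M below 0, are given with the processing.
The difference between the 3′ and the 5′ control probe sets of actin was 2.02 ± 0.21 on Ts1Cje and 1.67 ± 0.15 on disomic arrays, and that of Gapdh 2.34 ± 0.09 and 2.18 ± 0.10 on Ts1Cje and disomic arrays (SD, n = 3 each). The ribosomal RNA control averaged 12.22 ± 0.22 on Ts1Cje and 11.10 ± 0.78 on disomic arrays. On each of these controls the Ts1Cje arrays were all above the disomic ones, as on Mt1, Mt2, Mt3 and Slc30a1. The part of cell composition and RNA quality in the values of the member genes was not tested.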

How the data were processed

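RNA of 3 Ts1Cje and 3 disomic neurosphere cultures was labelled in 2 cycles and hybridised to Affymetrix Mouse Genome 430 2.0 arrays. The authors deposited log2 intensities made with GCRMA (version not given in the sources used here), which corrects background from probe base composition, normalizes between arrays and summarises each probe set. These steps cannot be repeated from the deposited log2 values. Genotypes came from the sample titles. The labels call the arrays biological replicates. Gene names are those of the platform annotation, used for probe sets with 1 symbol only (34945, against 932 with several and 9160 with none).

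All 45037 probe sets, without 64 controls, were fitted with limma 3.58.1 in R 4.3.3, with genotype as the only term, an empirical Bayes moderated t and Benjamini-Hochberg adjustment over all of them (two-sided). Intervals used the moderated error. Tables and figures were made with Python 3.11.15, pandas 2.3.3 and matplotlib 3.10.9. The fit was also run on simulated data, with differences larger than that of any member. That run does not show how the fit deals with differences of the size seen here.

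The members and lists were chosen with earlier results of these data known. Named were all members, and for each list the genes past a moderated t of 4 or otherwise the 2 expressed genes with the largest one, each by its brightest probe set. The genes most like Mt1 and Mt2 were the 5 with the smallest root mean square difference. Others named were chosen after their values were seen (Slc39a12, Gclm, Aqp4 and genes beside the metallothionein cluster). Oligodendrocyte, progenitor and neuronal marker lists were also set, with 4 of 7, 2 of 5 and 2 of 8 genes expressed. Their median M was -0.21, -0.22 and -0.09. Alternatives were a replicate block, each array left out, cyclic loess, array weights, an intensity trend in the prior, only expressed probe sets, other limits of A and gene means.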

Additional observations from a re-analysis of the deposited data

How the results depend on the processing

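The 12 expressed member probe sets had a median M of 0.12, which was 0.064 with array weights and between 0.0682 and 0.198 with each array left out. The M of Mt1, Mt2, Mt3 and Slc30a1 (brighter probe set) stayed above 0 in all 11 alternative fits, but this says little. The Ts1Cje arrays were all above the disomic ones on these, so leaving out or weighting arrays could not reverse M. The block, the intensity trend and the fit of only expressed probe sets leave M as it was. With each array left out the M of these genes ran from 0.45 to 0.78, 0.51 to 0.78, 0.25 to 0.58 and 0.52 to 0.92 in the same order. The number of members with a moderated t past 4 was 0 in the fit reported, between 0 and 2 with each array left out (Mt1 without disomic replicate 2, Mt2 and Slc30a1 without disomic replicate 3, Mtf1 without Ts1Cje replicate 3) and 1, Mt2, with array weights. No member had an adjusted p under 0.05 in limma under any alternative.

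The numbers were not taken as pairs, since the labels do not name them so. Deviations from the genotype means over expressed probe sets had correlations of -0.17, -0.03 and 0.13 between same-numbered arrays. Between differently numbered arrays they ran from -0.365 (Ts1Cje replicate 3, disomic replicate 2) to 0.395 (Ts1Cje replicate 1, disomic replicate 2). The 3 deviations of a genotype sum to 0, so these values cannot show whether the numbers mark pairs. With the replicate number as a block, 1081 expressed probe sets had a moderated t past 4, against 291 without it, and among them were 2 members, Mt1 (5.56) and Mt2 (7.36). The other zinc transporters stayed at 0 under the block and under every other alternative. Of the other metal genes 5 passed with the replicate block (Atp7a, Ncoa4, Fkbp5, Slc7a11 and Hsph1).

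Without 1 array the count over all expressed probe sets ran from 394 to 784, the highest without Ts1Cje replicate 1, with 651 without disomic replicate 3. It was 112 where only expressed probe sets were fitted. The count of other metal genes ran from 0 to 2 (Slc11a2 and Slc7a11 without disomic replicate 1, Slc11a2 and Dnajb1 without disomic replicate 3), and was 1 with array weights and 1 with gene means, Slc11a2 in both. The causes of these shifts were not tested. With 3 arrays per genotype a difference the size of that of Mt1 may go uncalled.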
